A study of Rattus norvegicus with 56 samples.

Results

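The microRNAs described here are miR-23a-3p, miR-23b-3p, miR-27a-3p, miR-27b-3p and miR-24-3p, the principal products of a pair of paralogous microRNA clusters. They were chosen by name, whatever their measured levels, and make up 5 of the 682 rat microRNAs listed in the small RNA sequencing counts of fetal myocardium, amniotic fluid and maternal serum. All 5 were listed in each tissue, and all 5 passed the filter on low counts in every comparison.

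The study used Sprague-Dawley rats, and samples were taken on embryonic day 19. Dams of the NC group were given distilled water, and the other dams were given dimethadione (DMO), the active metabolite of an anticonvulsant, which causes ventricular septal defects (VSD) in part of the exposed fetuses. VSD fetuses had a septal defect, and non-VSD fetuses had received DMO in utero but had an intact septum. Myocardium and amniotic fluid had 7 samples each of NC, non-VSD and VSD, and maternal serum had 7 samples of NC and 7 of VSD. Myocardial RNA came from paraffin wax blocks and amniotic fluid RNA from the supernatant. The dam of each fetus is not named, so p-values measure the spread between samples, some of which may be littermates.

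MicroRNAs are RNAs of about the same short length that guide Argonaute proteins to messenger RNAs, and the seed, bases 2 to 8 from the 5′ end, sets most of the pairing with targets. A hairpin precursor is cut into a 5p and a 3p arm, and usually one of the arms is kept. The miR-23, miR-27 and miR-24 hairpins are transcribed together from each locus, and the family is known for roles in the sprouting of endothelial cells, in muscle differentiation and in blood cells.

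The mature sequences (RefSeq, rat assembly GRCr8) are shown because both pairs of paralogs differ by a single base outside the seed, so every read that separates an a from a b member does so at that base. The seed is in capitals.
miR-23a-3p: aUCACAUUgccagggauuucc
miR-23b-3p: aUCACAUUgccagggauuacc
miR-27a-3p: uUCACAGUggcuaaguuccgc
miR-27b-3p: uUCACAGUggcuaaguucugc
miR-24-3p: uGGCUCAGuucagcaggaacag
Counted from the 5′ end, miR-23a and miR-23b differ by U19A (miR-23a first), and miR-27a and miR-27b by C19U (miR-27a first). Among the 693 mature sequences of the table, the miR-23 seed was shared by the miR-23 paralogs alone, the miR-27 seed by the miR-27 paralogs alone, and the miR-24 seed by no other microRNA. How many mismatches the authors allowed when they counted reads is not given in the sources used here, so the split of reads within a pair carries that uncertainty.

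The b cluster (Mir23b, Mir27b and Mir24-1) lies on the minus strand at chr17:1818669-1819482 of GRCr8, within the protein-coding gene Aopep, and spans 814 bases. The a cluster (Mir23a, Mir27a and Mir24-2) lies on the minus strand at chr19:40859455-40859843, spans 389 bases and falls within no annotated gene, with Zswim4 and Nanos3 as the neighbouring coding genes. Both loci make the same miR-24-3p, and its reads cannot be assigned to a locus. Their 5p arms can be told apart, since miR-24-1-5p and miR-24-2-5p differ at 5 positions, the first of them position 17.
miR-24-1-5p: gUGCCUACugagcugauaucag
miR-24-2-5p: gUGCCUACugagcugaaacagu

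Total counts per library were 1694811 to 9371130 in myocardium, 78188 to 331787 in amniotic fluid and 147609 to 581350 in maternal serum. The lowest count of any of the 5 microRNAs in a library was 670, 15 and 45 in these tissues, so counting error alone was largest in amniotic fluid. Amniotic fluid libraries were made with another kit and sequencer than those of myocardium and serum. Tissue and kit cannot be told apart there, so levels and ratios in amniotic fluid are set beside those of the other tissues without a test. The tests between tissues that include amniotic fluid are of the differences between groups within each tissue. The 8 microRNAs of the heart and skeletal muscle list made up between 1.35% and 24.5% of scaled counts in NC myocardium, and the 3 of the smooth muscle list 18.8% to 41.4%. The 8 epithelial microRNAs made up 8.96% to 14.4% in NC amniotic fluid, and the 4 red blood cell microRNAs 6.69% to 19.3% in NC serum.

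The member with the highest level was miR-27b-3p in NC myocardium and miR-23a-3p in NC serum and NC amniotic fluid. Levels are counts scaled to a total of 1e6 (CPM) after TMM scaling within a tissue, where TMM is a normalization that assumes most microRNAs unchanged. In NC myocardium, miR-27b-3p led with 9973 ± 2690 CPM (SD, n = 7), the 20th highest of 661 microRNAs. miR-24-3p followed with 2455 ± 394, miR-23b-3p with 1077 ± 79.8, miR-23a-3p with 685 ± 77.2 and miR-27a-3p with 420 ± 94.2 CPM. In this order no neighbouring members overlapped between NC libraries.

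In NC maternal serum, miR-23a-3p led with 6991 ± 1304 CPM (SD, n = 7) and ranked 23rd of 518 microRNAs. miR-24-3p had 2857 ± 799, miR-27b-3p 2090 ± 532 and miR-27a-3p 1558 ± 516 CPM, and the ranges of these 3 overlapped. miR-23b-3p was last with 361 ± 87.3 CPM, below every library's level of the other members.

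NC amniotic fluid also had miR-23a-3p first, at 9466 ± 3397 CPM (SD, n = 7), ranked 32nd of 523. miR-27b-3p had 6054 ± 1502, miR-23b-3p 3288 ± 548, miR-24-3p 2218 ± 992 and miR-27a-3p 829 ± 148 CPM. The ranges of miR-23a-3p and miR-27b-3p overlapped, as did those of miR-23b-3p and miR-24-3p, while miR-27a-3p was below the other members in every library.

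**Figure D1:**
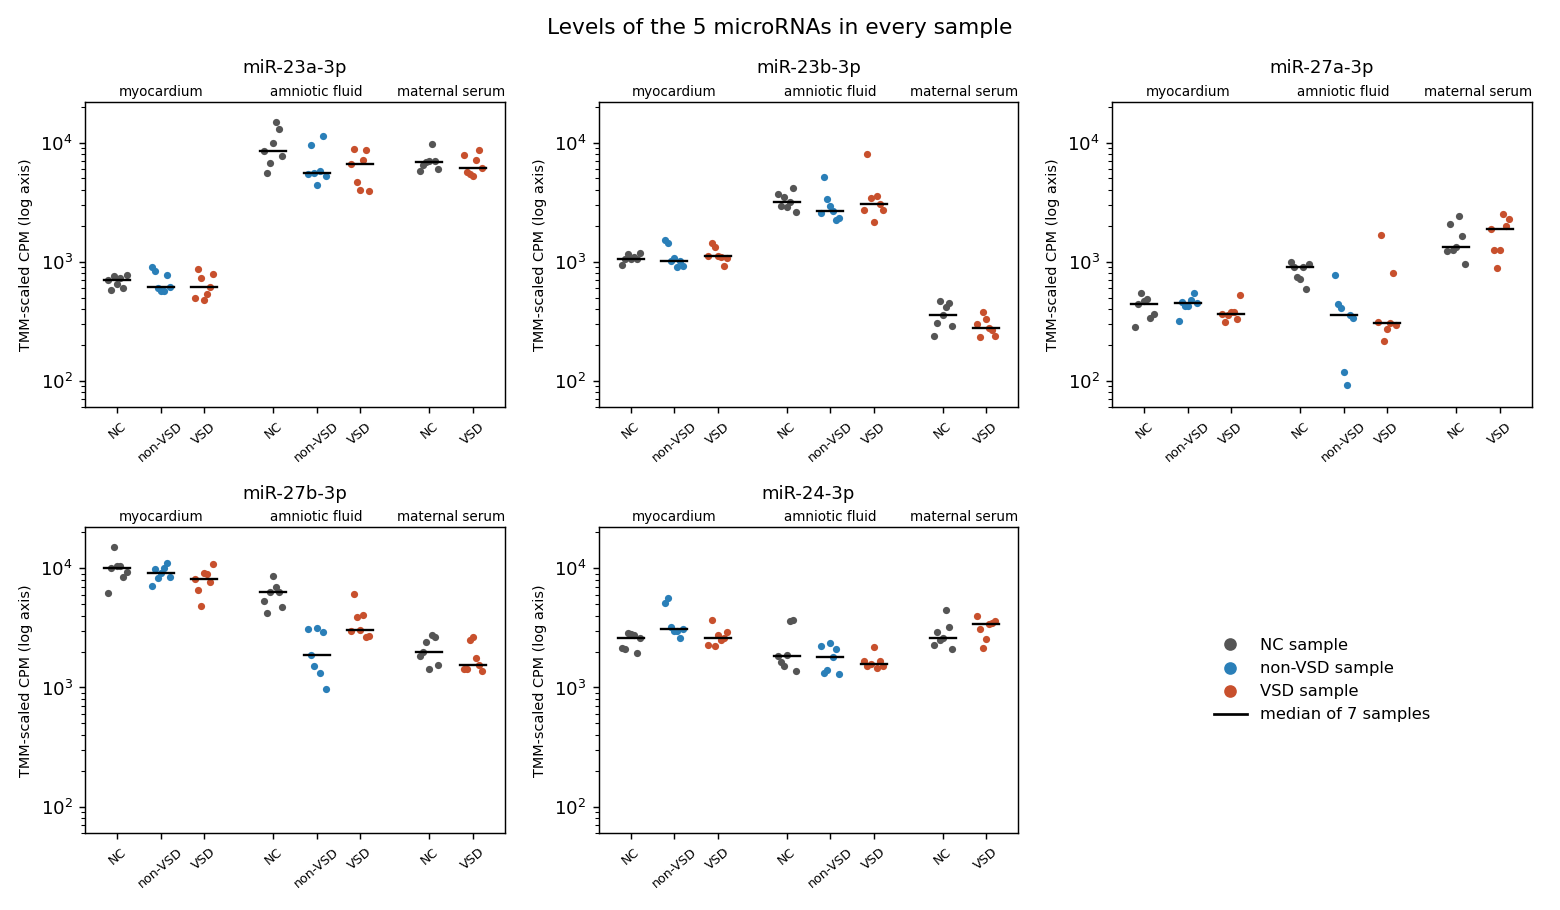
TMM-scaled CPM (log axis) of each of the 5 microRNAs in every sample, by tissue and group, with a black line at the median of 7 samples. miR-27b-3p is the highest member in myocardium, miR-23a-3p in serum, and in amniotic fluid the non-VSD samples of miR-27b-3p (966 to 3134 CPM) lie below all NC samples (4206 to 8669 CPM).

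The balance of the paralogs separated the tissues. A share of reads within a pair does not depend on how a library is scaled. miR-23a-3p made up 35.6% to 42.7% of miR-23 reads in NC myocardium (median 39.4%), 65.3% to 82.4% in NC amniotic fluid (median 74.5%) and 93.7% to 96.0% in NC serum (median 95.4%). None of these ranges overlapped. Myocardium thus held more miR-23b than miR-23a reads in every NC library, and serum held mostly miR-23a.

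The miR-27 pair moved in the same order between tissues, from a lower start. miR-27a-3p took 3.53% to 4.49% of miR-27 reads in NC myocardium (median 4.18%), 7.62% to 17.6% in NC amniotic fluid (median 11.5%) and 34.4% to 51.1% in NC serum (median 40.1%). The ranges of the 3 tissues did not overlap. In myocardium miR-27b-3p therefore outnumbered miR-27a-3p by a geometric mean of 23.6-fold, against 1.36-fold in serum.

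Myocardium and serum were made with the same library kit and sequencer, so their ratios could be tested, although the extraction kit and the wax embedding differed and cannot be told apart from the tissue. The log2 ratio of miR-23a to miR-23b differed by -4.95 between NC myocardium and NC serum (SE 0.12, 30.8-fold lower in myocardium), with an adjusted p of 0.000728 by an exact two-sided permutation test. For miR-27a to miR-27b the difference was -4.11 (SE 0.15, 17.3-fold lower, adjusted p = 0.000728, exact permutation test). p-values were adjusted over 5 ratios.

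Ratios between members of one cluster differed between these tissues as well, but by less. The log2 ratio of miR-27a to miR-23a, both from chromosome 19, was higher in myocardium by 1.48 (SE 0.19, 2.79-fold, adjusted p = 0.000728, exact permutation test). That of miR-27b to miR-23b, both from chromosome 17, was higher by 0.65 (SE 0.17, 1.57-fold, adjusted p = 0.00175, exact permutation test). The ratio of miR-24 to the miR-27 pair was 3.25-fold lower in myocardium (log2 difference -1.70, SE 0.13, adjusted p = 0.000728, exact permutation test). All 5 ratios passed the threshold, and an unadjusted p of 0.000583 is the smallest that this design can give.

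**Figure D2:**
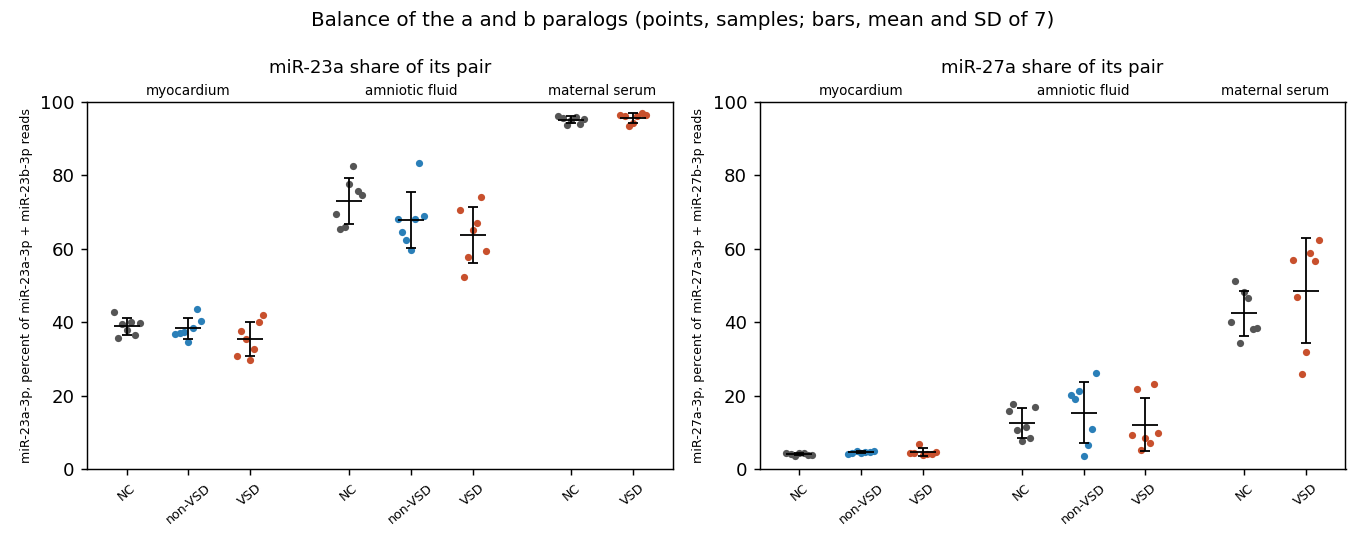
Reads of the a paralog as a percent of its pair in every sample, for miR-23 (left) and miR-27 (right), with the mean and SD of 7 samples. The miR-23a share lies near 39% in NC myocardium and 95% in NC serum, and the miR-27a share near 4% and 42%, with NC amniotic fluid between them in both panels.

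In the groups exposed to DMO the miR-23a share kept the same order of tissues, with no overlap between tissues. The miR-23a share had a mean of 38.3% ± 2.85 in non-VSD and 35.5% ± 4.66 in VSD myocardium (SD, n = 7 each), against 38.8% ± 2.43 in NC. In amniotic fluid it was 67.9% ± 7.64 in non-VSD and 63.7% ± 7.59 in VSD, against 73.0% ± 6.35 in NC, and all 7 VSD samples were under the NC median. The log2 ratio of miR-23a to miR-23b in amniotic fluid differed by -0.63 between VSD and NC (SE 0.26), which missed the threshold after adjustment over 35 tests of group differences in ratios (adjusted p = 0.143, exact permutation test). In serum the share was 95.6% ± 1.31 in VSD and 95.1% ± 0.930 in NC.

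The miR-27a share spread more widely in some DMO groups than in NC. In serum it ran from 34.4% to 51.1% in NC and from 26.0% to 62.4% in VSD, where 4 samples were above every NC sample and 2 were below every NC sample. In amniotic fluid the ranges were 7.62% to 17.6% in NC, 3.64% to 26.1% in non-VSD and 5.28% to 23.3% in VSD. Under DMO these ranges overlapped those of myocardium, which were 4.25% to 5.03% in non-VSD and 3.98% to 6.84% in VSD. The wider ranges in the groups with DMO were not tested.

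A small difference in myocardium was called. The miR-27a share was 3.53% to 4.49% in NC (median 4.18%) and 4.25% to 5.03% in non-VSD (median 4.53%), so the groups overlapped, with 4 of 7 non-VSD samples above every NC sample. The log2 ratio of miR-27a to miR-27b was 0.19 higher in non-VSD (SE 0.06, 1.14-fold, adjusted p = 0.0490, exact permutation test). This call was lost when any of 10 of the 14 samples was left out, 6 non-VSD and 4 NC. Over all samples left out the differences ran from 0.16 to 0.22. With medians in place of means the difference was 0.12 (adjusted p = 0.0680, exact permutation test). Many groupings give the same difference of medians, so even groups without overlap reached no adjusted p below 0.0680 by medians. The test on medians therefore cannot show a call to be lost. In VSD myocardium the ratio was 0.17 higher than in NC (SE 0.12, adjusted p = 0.383, exact permutation test).

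The largest of the 35 fold changes of members was that of miR-27b-3p in the amniotic fluid of non-VSD fetuses. NC samples had 4206, 6279 and 8669 CPM (lowest, median and highest) and non-VSD samples 966, 1875 and 3134 CPM. All 7 non-VSD samples were below all 7 NC samples, a separation that 2.07% of the microRNAs tested showed in this direction. edgeR's quasi-likelihood test gave a log2 fold change of -1.41 (SE 0.30, 0.376-fold, adjusted p = 0.0272), against a median of 0.11 over the 242 microRNAs tested. It had the lowest p of the 242, and was the only member of 5 with an adjusted p under 0.05, where 4.96% of all microRNAs tested were called (3.31% higher and 1.65% lower). The call was lost without NC replicate 1 (adjusted p = 0.0671), NC replicate 3 (adjusted p = 0.0660) or non-VSD replicate 5 (adjusted p = 0.0522), with log2 fold changes of -1.50, -1.40 and -1.34.

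Its seed mate miR-27a-3p had values in the same direction in this comparison. NC samples had 587, 900 and 993 CPM (lowest, median and highest) and non-VSD samples 92.6, 354 and 779 CPM, from counts of 15 to 144 reads. In 6 of 7 non-VSD samples the level was below every NC sample. The log2 fold change was -1.13 (SE 0.43, 0.458-fold), with an adjusted p of 0.127 by edgeR. By edgeR it met the study's cut-offs for DE-microRNAs (an unadjusted p under 0.05 together with a 2-fold change in either direction), as did miR-27b-3p. So 2 of 5 members met them as downregulated, where 3.72% of those tested did. The study's own list for this comparison, from its own tests, has miR-27b-3p as downregulated but not miR-27a-3p. By edgeR, miR-27a-3p and miR-27b-3p were also the 2 of 5 members with an unadjusted p under 0.05, which 19.4% of all tested had.

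The other 3 members did not pass the test there. miR-23b-3p, from the same cluster as miR-27b, had 2620, 3167 and 4188 CPM in NC and 2249, 2680 and 5178 CPM in non-VSD amniotic fluid, and the groups overlapped (log2 fold change -0.02, SE 0.25, adjusted p = 0.968, edgeR). For miR-24-3p the values were 1376, 1844 and 3657 CPM in NC and 1306, 1797 and 2341 CPM in non-VSD (log2 fold change -0.21, SE 0.29, adjusted p = 0.757, edgeR). miR-23a-3p had 5549, 8418 and 14858 CPM in NC and 4384, 5541 and 11284 CPM in non-VSD, with 4 of 7 below every NC sample (log2 fold change -0.41, SE 0.28, adjusted p = 0.437, edgeR).

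The ratios within each library gave the difference between cluster mates a test of its own. The ratio of miR-27b to miR-23b was 1.42 to 3.02 in NC amniotic fluid (median 1.78) and 0.362 to 1.29 in non-VSD (median 0.494), so the groups did not overlap. On the log2 scale it differed by -1.46 in non-VSD (SE 0.34, 2.74-fold lower, adjusted p = 0.00680, exact permutation test). The ratio of miR-24 to the miR-27 pair was 0.200 to 0.532 in NC (median 0.294) and 0.572 to 1.27 in non-VSD (median 0.720), again with no overlap (log2 difference 1.31, SE 0.26, 2.48-fold, adjusted p = 0.00680, exact permutation test). Both kept an adjusted p under 0.05 without any single sample. With medians in place of means the differences were -1.85 and 1.29 (adjusted p = 0.0680 for both, exact permutation test). That was the lowest adjusted p by medians, so medians cannot decide these calls. The ratio of miR-27a to miR-23a in the other cluster differed by -0.97 on the log2 scale (SE 0.46), which did not pass (adjusted p = 0.222, exact permutation test).

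In the amniotic fluid of VSD fetuses, none of the 5 members passed an adjusted p of 0.05 by edgeR, nor did any of the 245 microRNAs tested (0%). At an unadjusted p under 0.05 there were 2 of 5 members, against 13.5% of all tested, and DESeq2 and limma called 0 members. miR-27b-3p had 2671, 3014 and 6079 CPM in VSD against 4206, 6279 and 8669 in NC, and 6 of 7 VSD samples lay under all of NC. The exception was VSD replicate 2. The log2 fold change was -0.71 (SE 0.24, 0.611-fold, adjusted p = 0.230, edgeR).

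miR-23a-3p in VSD amniotic fluid had 3952, 6548 and 8746 CPM, with 3 of 7 samples below every NC sample (log2 fold change -0.57, SE 0.27, adjusted p = 0.358, edgeR). miR-27a-3p had 216, 305 and 1682 CPM, and 5 of 7 lay under every NC sample while replicate 2 was above every one. Its log2 fold change was -0.56 (SE 0.44, adjusted p = 0.634, edgeR), and -1.16 without that replicate (adjusted p = 0.131). miR-23b-3p (log2 fold change 0.18, SE 0.27) and miR-24-3p (-0.40, SE 0.27) had adjusted p of 0.799 and 0.517 by edgeR.

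The ratio of miR-27b to miR-23b was lower in VSD amniotic fluid too. It was 0.766 to 1.40 in VSD (median 1.09) against 1.42 to 3.02 in NC (median 1.78), so all 7 VSD samples were below all 7 NC samples, although the highest VSD and lowest NC values were close. The log2 difference was -0.80 (SE 0.18, 1.74-fold lower, adjusted p = 0.00680, exact permutation test), and the call held without any single sample. With medians it was -0.71 (adjusted p = 0.0680, exact permutation test), again the lowest adjusted p by medians. VSD and non-VSD were each compared with the same NC samples.

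Set against each other, the DMO groups differed in the ratio of miR-24 to the miR-27 pair. It was 0.194 to 0.659 in VSD amniotic fluid (median 0.476) and 0.572 to 1.27 in non-VSD (median 0.720), with 6 of 7 VSD samples below every non-VSD sample. The log2 difference was -0.88 (SE 0.27, 1.84-fold lower in VSD, adjusted p = 0.0255, exact permutation test). With medians it was -0.60 (adjusted p = 0.0680, exact permutation test), which cannot decide the call, since no test by medians gave a lower adjusted p. For miR-27b-3p itself, VSD was above non-VSD by a log2 fold change of 0.77 (SE 0.28, 1.71-fold, adjusted p = 0.206, edgeR), and all 7 VSD samples were above the non-VSD median. No member passed in this comparison by edgeR, DESeq2 or limma, where 0% of 273 microRNAs passed by edgeR and 10.6% had an unadjusted p under 0.05, miR-27b-3p alone among the members.

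**Figure D3:**
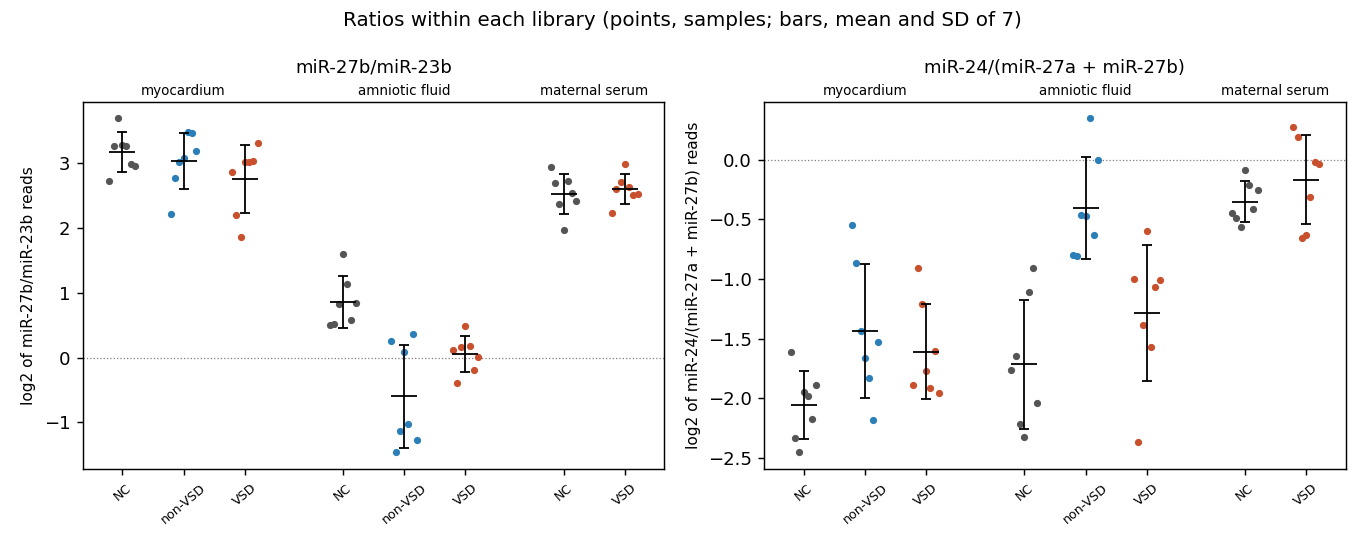
The log2 ratio of miR-27b to miR-23b reads (left) and of miR-24 reads to miR-27a plus miR-27b reads (right) in every sample, with the mean and SD of 7 samples. In amniotic fluid the miR-27b/miR-23b ratio of both DMO groups lies below all NC samples, and the miR-24/miR-27 ratio of non-VSD lies above all NC samples.

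The summed levels of marker microRNAs of other cell types had different medians in some of these amniotic fluid groups, with ranges that overlapped between groups in every list given here. The summed level of the 8 epithelial microRNAs (8 of 8 listed, none at 0 in any group) was 89566 to 144438 CPM in NC, 53400 to 121408 in non-VSD and 56903 to 152208 in VSD, with medians of 114270, 73972 and 114859 CPM. That of the 4 red blood cell microRNAs (4 of 4 listed, none at 0) was 15044 to 34791 CPM in NC, 25425 to 86089 in non-VSD and 18119 to 143484 in VSD, with medians of 22274, 63627 and 40405 CPM. The 4 white blood cell microRNAs had medians of 2960, 7321 and 2812 CPM, and the 2 endothelial ones 725, 1482 and 627 CPM. Medians in NC, non-VSD and VSD were 19397, 15089 and 14183 CPM for the 3 smooth muscle microRNAs and 7454, 6242 and 9900 CPM for the 3 liver ones. The 8 heart and skeletal muscle microRNAs ran from 497 to 62093 CPM in NC, from 406 to 25771 in non-VSD and from 577 to 281972 in VSD, with medians of 3812, 18586 and 21684 CPM. VSD replicate 4 had the highest of these values, and the miR-27b-3p fold change without it was -0.68 on the log2 scale. The part of these cells in the levels of miR-27 was not tested. Amniotic fluid RNA came from the supernatant, so the number of cells, RNA per cell and RNA released from cells cannot be told apart.

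In myocardium none of the 5 members passed an adjusted p of 0.05 in any comparison by edgeR. The background was small as well, with 0.426% of 469 microRNAs called in VSD against NC, 0.219% of 456 in non-VSD against NC and 0% of 483 in VSD against non-VSD. At an unadjusted p under 0.05 these shares were 19.2%, 17.5% and 11.6%, with 0, 1 and 1 of the 5 members, in each case miR-24-3p. limma called 0 members in all 3 comparisons, and DESeq2 called 0 in the comparisons of VSD and 1 in non-VSD against NC.

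miR-24-3p had the largest fold change among the members in non-VSD myocardium. NC samples had 1928, 2587 and 2852 CPM (lowest, median and highest), non-VSD samples 2577, 3084 and 5629 CPM, and VSD samples 2246, 2614 and 3676 CPM. In 6 of 7 non-VSD samples the level was above every NC sample. The log2 fold change against NC was 0.61 (SE 0.21, 1.53-fold, adjusted p = 0.126, edgeR), against a median of -0.07 over all microRNAs tested. Its adjusted p over the alternatives ran from 0.0132 to 0.413, with 0.0415 by DESeq2 and 0.0132 with scaling by library size only.

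The ratio of miR-24 to the miR-27 pair in myocardium was 0.183 to 0.327 in NC (median 0.254) and 0.221 to 0.683 in non-VSD (median 0.346), with 4 of 7 non-VSD samples above every NC sample. The log2 difference was 0.62 (SE 0.24, adjusted p = 0.112, exact permutation test), and 0.74 without non-VSD replicate 6 (adjusted p = 0.0204, exact permutation test). The 5p arm from chromosome 19 gave a value alongside it. miR-24-2-5p had 61.3, 79.5 and 108 CPM in NC and 92.7, 113 and 178 CPM in non-VSD myocardium (log2 fold change 0.60, SE 0.20, adjusted p = 0.126, edgeR). miR-24-1-5p from chromosome 17 had 2.17, 2.91 and 4.90 CPM in NC and 2.27, 4.01 and 8.06 in non-VSD (log2 fold change 0.56, SE 0.32, adjusted p = 0.423, edgeR). All 3 overlapped between the groups. The summed level of the endothelial markers (miR-126a-3p and miR-126a-5p, both listed and above 0) was 11476 to 23906 CPM in NC, 20265 to 31235 in non-VSD and 14970 to 22037 in VSD myocardium. Other lists differed too. Medians in NC, non-VSD and VSD were 33788, 7003 and 7522 CPM for red blood cell and 1523, 525 and 571 for white blood cell microRNAs. They were 101720, 87250 and 49773 CPM for heart and skeletal muscle and 227198, 221014 and 181473 for smooth muscle. Epithelial medians were 1366, 1697 and 3265 CPM, and liver medians 1107, 898 and 743. The part of any list in the miR-24 values was not tested.

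The other members in myocardium did not pass by any of these tools. miR-27b-3p had 6244, 10056 and 15067 CPM in NC, 7152, 9038 and 11115 in non-VSD and 4845, 8136 and 10780 in VSD. Its log2 fold change in VSD was -0.32 with a 95% interval from -0.75 to 0.12 (adjusted p = 0.374, edgeR). For miR-23a-3p, miR-23b-3p and miR-27a-3p the log2 fold changes in VSD were -0.10, 0.10 and -0.15, and in non-VSD 0.06, 0.10 and 0.11, with adjusted p of at least 0.666 by edgeR. Fold changes in myocardium shifted with the scaling. With library size only, the median of all microRNAs in VSD against NC went from -0.05 to 0.32, and miR-23a-3p, miR-27a-3p and miR-27b-3p turned to 0.30, 0.27 and 0.12.

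Maternal serum gave no call among the members. None of the 5 passed an adjusted p of 0.05 by edgeR, DESeq2 or limma, against 0% of the 219 microRNAs tested by edgeR, and none of the 5 had an unadjusted p under 0.05, against 13.7% of all tested. miR-23b-3p had 239, 359 and 465 CPM in NC and 233, 280 and 378 in VSD, a log2 fold change of -0.32 with a 95% interval from -0.75 to 0.11 (adjusted p = 0.538, edgeR). For miR-23a-3p the interval was -0.46 to 0.28, for miR-24-3p -0.27 to 0.57, for miR-27a-3p -0.39 to 0.68 and for miR-27b-3p -0.66 to 0.25. These intervals reach past a log2 change of 0 on both sides and end short of 1, a change of 2-fold, for each of the 5.

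**Figure D4:**
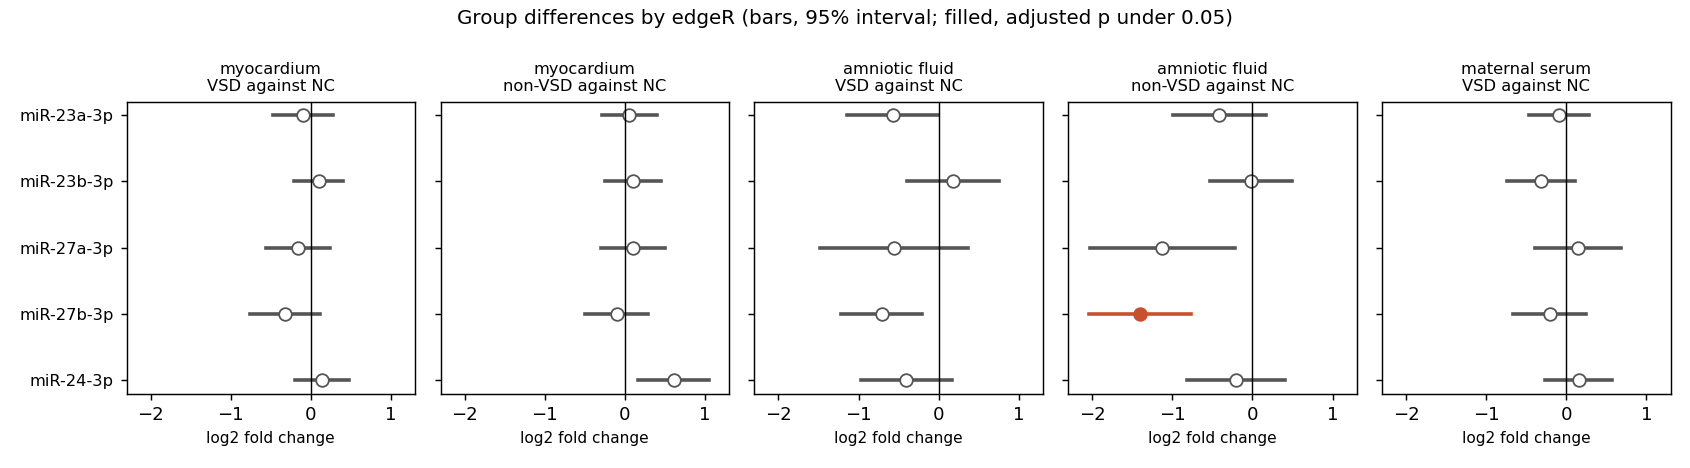
Log2 fold change against NC of each member by edgeR, with its 95% interval, in the 5 comparisons with NC. The filled point, miR-27b-3p in non-VSD amniotic fluid, is the only one of 25 with an adjusted p under 0.05.

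Whether the group difference of a member from NC was unlike between tissues was tested on the difference of the 2 group differences in mean log2 CPM. For non-VSD against NC, the difference of miR-27a-3p was 0.10 in myocardium and -1.42 in amniotic fluid, so that the tissues differed by 1.52 (adjusted p = 0.0317, permutation test, 100000 draws). For miR-27b-3p the difference between tissues was 1.50 (adjusted p = 0.0317, permutation test). These were 2 of 20 tests past the threshold, and the other 3 members in the same comparison gave 0.50 (miR-23a-3p), 0.19 (miR-23b-3p) and 0.77 (miR-24-3p) with adjusted p of 0.154 or more by the same permutation test. For VSD against NC, none of the 15 tests between tissues passed (lowest adjusted p 0.192, permutation test).

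In NC myocardium each 5p arm of the miR-23 and miR-27 hairpins was below the 3p arm of its hairpin. Both 5p arms of miR-24 were below miR-24-3p, whose reads cannot be assigned to a hairpin. The 5p arms did not keep the order of the 3p arms. Levels of miR-27b-3p were above those of miR-27a-3p in every NC library, yet miR-27a-5p (90.4 to 201 CPM, median 112) was above miR-27b-5p (22.6 to 56.5 CPM, median 45.7), by 2.29 to 4.0 times in the 7 NC libraries. The same order held in 7 of 7 non-VSD and 7 of 7 VSD libraries, with median ratios of 2.44 and 2.26. miR-24-2-5p outnumbered miR-24-1-5p by 17.9 to 32.8 times in NC myocardium (median 26.0), from counts of 13 to 25 reads per library for miR-24-1-5p.

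The ratios of the arms lay far apart between the miR-27 hairpins. Each read of miR-27a-5p stood beside 2.54 to 4.25 reads of miR-27a-3p in NC myocardium (median 3.16), and each read of miR-27b-5p beside 179 to 362 reads of miR-27b-3p (median 232). These are ratios of different sequences, and how well the kit captures each was not measured. The miR-23 hairpins left almost no 5p arm in myocardium, with 11 reads of miR-23a-5p and 31 of miR-23b-5p over the 7 NC libraries, beside 27269 and 43823 reads of their 3p arms.

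**Figure D5:**
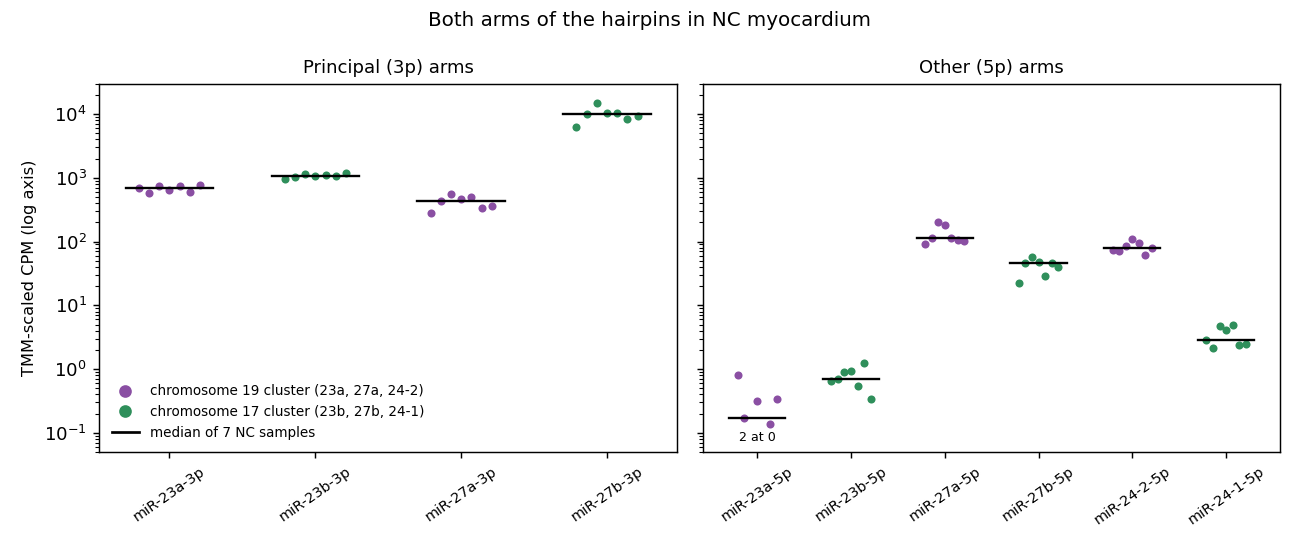
TMM-scaled CPM (log axis) of the 3p arms (left) and 5p arms (right) in the 7 NC myocardium samples, coloured by cluster, with a black line at the median. miR-27b-3p is the highest 3p arm, while on the 5p side the chromosome 19 products miR-27a-5p (median 112 CPM) and miR-24-2-5p (median 79.5 CPM) are the highest, and 2 samples have no read of miR-23a-5p.

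In serum the 5p arms came almost only from the chromosome 19 cluster. The NC libraries held 994 reads of miR-27a-5p, 174 of miR-23a-5p and 7 of miR-24-2-5p in all, against 24 of miR-23b-5p from chromosome 17, and miR-27b-5p and miR-24-1-5p were not listed for serum. miR-27a-5p in NC serum was at 365 ± 151 CPM and in VSD serum at 432 ± 286 CPM (SD, n = 7 each; log2 fold change 0.25, SE 0.41, adjusted p = 0.808, edgeR).

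In amniotic fluid, miR-27a-5p had 123 to 561 CPM in NC (median 224) and 85.3 to 472 in non-VSD (median 177), with a log2 fold change of -0.04 (SE 0.54, adjusted p = 0.971, edgeR). miR-27a-3p outnumbered it in 7 of 7 NC libraries and in 4 of 7 non-VSD libraries, where the lowest ratio was 0.214. The fold change stood beside -1.13 for miR-27a-3p, and the difference between the arms was not tested. miR-27b-5p had 34 reads over 3 of 7 NC libraries, 2 reads in 1 of 7 VSD libraries and 0 in the 7 non-VSD libraries. A count of 0 allows up to 3 reads per library, which is as much as 38.4 CPM in the shallowest library of this tissue, so its absence is not shown. The 5p arms of miR-24 had 2 reads in all over the 21 amniotic fluid libraries. No 5p arm passed an adjusted p of 0.05 in any comparison by edgeR, and those of too few reads were not tested.

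How nearly members ran in parallel over the samples of a tissue was measured by the SD of the log2 ratio of their counts, a description in which points share a library and its depth. In the 21 myocardium samples the closest companion of miR-27a-3p among 348 microRNAs was miR-27b-3p (SD 0.20), and the reverse held. The hairpins lie on different chromosomes, but the mature sequences differ by a single base, and the mismatches allowed in counting are not given. The part of misassigned reads in the SD of either paralog pair was not tested. miR-23b-3p was the closest to miR-23a-3p (SD 0.23), while miR-23a-3p was only the 4th nearest to miR-23b-3p. Mates within a cluster ran further apart, at 0.38 for miR-27a-3p with miR-23a-3p and 0.45 for miR-27b-3p with miR-23b-3p. The median over all 348 microRNAs was 0.55 for miR-23a-3p and 0.66 for miR-27b-3p. miR-24-3p ran most nearly with its own 5p arm from chromosome 19, miR-24-2-5p (SD 0.16).

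The 14 serum samples gave another order. There miR-27b-3p was closest to its cluster mate miR-23b-3p (SD 0.27, first of 131 microRNAs), and miR-23a-3p to miR-24-3p (SD 0.23, first of 131). miR-27a-3p ran with miR-24-3p at 0.26, the third of 131. The miR-27 paralogs, in contrast, were 0.67 apart, and miR-27b-3p was the 64th nearest to miR-27a-3p. In the 21 amniotic fluid samples the SDs were larger, 0.52 for miR-23a-3p with miR-24-3p, 0.55 for the miR-23 pair and 0.88 for the miR-27 pair, where counts were lowest.

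Outside the family, the nearest microRNAs also depended on the tissue. In myocardium they were miR-149-5p for miR-23a-3p (SD 0.24), miR-181b-5p for miR-23b-3p (0.19), miR-152-3p for miR-27a-3p (0.21), miR-30d-3p for miR-27b-3p (0.20) and, after miR-24-2-5p, the endothelial marker miR-126a-3p for miR-24-3p (0.25). In serum miR-361-5p was the nearest to both miR-23a-3p (0.23) and miR-24-3p (0.18). miR-30a-5p was nearest to miR-23b-3p (0.25), miR-378a-3p to miR-27b-3p (0.28) and miR-142-5p, a white blood cell marker, to miR-27a-3p (0.23). In amniotic fluid miR-30a-3p was the nearest to both miR-27a-3p (0.84) and miR-27b-3p (0.60), with the epithelial marker miR-203a-3p next for miR-27b-3p (0.61). For the other members there they were miR-10a-5p for miR-23a-3p (0.45), miR-25-3p for miR-23b-3p (0.47) and miR-429, an epithelial marker, for miR-24-3p (0.50). Next for miR-23b-3p were the epithelial markers miR-200a-3p (0.49) and miR-203a-3p (0.51), so such neighbours were not particular to miR-27b-3p.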

How the data were processed

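Small RNA libraries of 56 rat samples (8 groups of 7) were analysed from 5 deposited tables. The authors demultiplexed reads with bcl2fastq 2.19 and deposited raw counts of reads per mature microRNA, which were used here. Aligner, annotation and build are not given in the sources used here, nor whether amniotic fluid counts are of reads or of molecular identifiers. A further 70 columns of per-sample normalized values, and columns of the authors' own comparisons (log2 fold changes, fold changes and p-values), were not used. Members and lists were chosen with earlier results of these data known.

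Groups were taken from the sample titles. The counts were fitted with edgeR 4.0.16 under R 4.3.3 (filterByExpr, minimum count 10 and minimum total 15, TMM, quasi-likelihood test), 7 against 7, with Benjamini-Hochberg adjustment over all microRNAs tested. VSD and non-VSD were compared in a fit of the 3 groups of the tissue. DE-microRNAs followed the study's threshold (p under 0.05 and a fold change of 2 or more, or 0.5 or less), applied to the edgeR results. CPM were TMM-scaled over all samples of a tissue, and log2 CPM had a prior count of 2.

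Log2 ratios between members (counts + 0.5) were compared by exact two-sided permutation tests of the difference of means, adjusted over 35 tests (5 ratios in 7 comparisons) or over 5 between tissues. Differences between tissues were tested by 100000 two-sided permutations within tissue, adjusted over 20, which takes the samples of different tissues as independent. Parallel microRNAs were sought among those with a median count of at least 50, and for each member and tissue the nearest non-members were named. The 5 members and the 6 other arms were always named. No replicate pair agreed within sampling noise (lowest chi-square per degree of freedom 10.7). Total counts per sample set the precision, and a count of 0 was taken to allow 3 reads. Limits of this kind cover counting error only.

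Alternatives were scaling by library size only, DESeq2 1.42.0, limma 3.58.1 on log2(CPM + 1), no filter, a block on the replicate number, other groups in the fit, each sample left out in turn, a pseudocount of 5, medians, and a prior count of 0.5. The scripts were tested on simulated data. Figures were drawn with matplotlib 3.10.9.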

Additional observations from a re-analysis of the deposited data

Results flagged for a closer look

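Of 80 groups of 7 values (levels and ratios of the members), 9 held a sample whose gap to the nearest other exceeded Dixon's 95% critical value (0.568 of the range), where chance gives about 1 in 20. In amniotic fluid, 3 of the 9 were VSD replicate 2, with miR-23b-3p at 7941 CPM, miR-27a-3p at 1682 CPM and miR-27b-3p at 6079 CPM, each the highest of its group. VSD replicate 4 had miR-24-3p at 2165 CPM, non-VSD replicate 2 had miR-23b-3p at 5178 CPM, and non-VSD replicate 6 had a log2 miR-23a/miR-23b ratio of 2.32. In myocardium, VSD replicate 7 had miR-27a-3p at 528 CPM, and VSD replicate 3, the shallowest library with 1694811 counts, a log2 miR-27a/miR-27b ratio of -3.77. In serum, NC replicate 5 had miR-23a-3p at 9733 CPM.

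The group difference of non-VSD from NC was unlike in myocardium and amniotic fluid for miR-27a-3p, by 1.52 on the log2 scale, and for miR-27b-3p, by 1.50 (adjusted p = 0.0317 for both, permutation test over 20 comparisons). Library kit and sequencer differed between these tissues.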

How the results depend on the processing

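Of 695 alternative values of the 35 member fold changes, 668 kept their direction and side of the threshold. The number of members with an adjusted p under 0.05 changed from 0 to 1 with library size only in VSD and in non-VSD myocardium against NC, and from 0 to 1 by DESeq2 in the latter, each time for miR-24-3p (log2 fold changes 0.57, 0.83 and 0.58). In non-VSD amniotic fluid it ran from 0 to 1 over the samples left out. With library size only, fold changes turned in VSD myocardium against NC for miR-23a-3p (0.30), miR-27a-3p (0.27) and miR-27b-3p (0.12), in non-VSD for miR-27b-3p (0.15) and between VSD and non-VSD for miR-23a-3p (0.026). DESeq2 turned miR-23b-3p in non-VSD amniotic fluid (0.031). Library size only moved the median of all microRNAs by 0.37, 0.20 and 0.16 on the log2 scale in VSD against NC, non-VSD against NC and VSD against non-VSD myocardium. It raised the tests between tissues past the threshold from 2 to 11 of 20 and turned VSD against NC in myocardium minus serum for miR-23a-3p (0.33), miR-27a-3p (0.096), miR-27b-3p (0.26) and miR-24-3p (0.34). The cause of the other changes was not tested.

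Some fold changes near 0 turned when a sample was left out. In myocardium they ran from -0.026 to 0.12 (miR-23b-3p, VSD against NC), from -0.20 to 0.027 (miR-27b-3p, non-VSD against NC), from -0.0076 to 0.097 (miR-23a-3p, non-VSD against NC) and from -0.050 to 0.13 (miR-23b-3p, VSD against non-VSD). In amniotic fluid miR-23b-3p ran from -0.14 to 0.30 (VSD against NC), from -0.20 to 0.013 (non-VSD against NC) and from -0.062 to 0.44 (VSD against non-VSD), and miR-23a-3p from -0.21 to 0.066 (VSD against non-VSD). In serum the ranges were -0.17 to 0.025 (miR-23a-3p) and -0.0017 to 0.35 (miR-27a-3p).

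Of 595 alternative values of the 35 ratio differences, 555 kept direction and side of the threshold. The 5 calls fell to 0 with medians in place of means (lowest adjusted p 0.0680, exact permutation test). Groups without overlap did not pass by medians either, so that test cannot show a call to be lost. The calls also fell to 0 in the replicate block, a sign-flip test of same-numbered pairs. Its smallest p of 0.0156 could pass adjustment over 35 tests only if many tests reached it. The lowest adjusted p there was 0.137 (sign-flip test). The block gave -1.52 for miR-27b-3p in non-VSD amniotic fluid (adjusted p = 0.0223, edgeR) and changed no member call by edgeR. Same-numbered samples correlated from -0.62 to 0.47, with some pair under 0.1 in all 7 comparisons. In serum VSD against NC and in myocardium VSD against non-VSD, 5 of 7 pairs were over 0.1 (medians 0.15 and 0.17). This does not tell whether the numbers pair the samples, and pairs across tissues were not examined. With medians, log2 miR-27a/miR-23a in VSD myocardium against NC was 0.0050.
With a sample left out, 4 or 5 of the 35 passed, and log2 differences that turned ran, for miR-27a/miR-23a in myocardium, from -0.12 to 0.10 (VSD against NC), from -0.0064 to 0.23 (non-VSD against NC) and from -0.25 to 0.0094 (VSD against non-VSD). Others ran from -0.21 to 0.00058 (miR-27b/miR-23b, non-VSD against NC, myocardium), from -0.085 to 0.0064 (miR-23a/miR-23b, non-VSD against NC, myocardium), from -0.12 to 0.015 (miR-27a/miR-27b, VSD against non-VSD, myocardium), from -0.063 to 0.47 (miR-27a/miR-27b, non-VSD against NC, amniotic fluid) and from -0.010 to 0.15 (miR-27b/miR-23b, VSD against NC, serum).
The 5 ratios between NC myocardium and NC serum kept their call in all 75 alternative values. Depth limits amniotic fluid most, where 15 reads of miR-27a-3p carry a counting SD of 25.8%.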
